A study of Mus musculus with 6 samples.

Results

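The genes described here are Klf2, 4 further Krüppel-like factors (Klf3, Klf6, Klf10 and Klf13), the sphingosine-1-phosphate (S1P) receptors S1pr1 and S1pr4, and the S1P-producing kinase Sphk1, in all 8 of the 17831 genes in the count table. Klf2 was chosen by its lower level in these same SIRPα KO libraries, and the others were selected by name, as expressed relatives of Klf2 and as genes of cell egress, with earlier results of these data known. The values of Klf2 between genotypes are therefore given as a description with no test, and the number of the other genes that passed a test is not evidence about the set. The selection had no numeric threshold on level. Klf5, Klf7 and Klf16 lay above Klf3 and Klf13 in level per transcript length and were not selected, and they are given below with the rest of the family.

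The study sequenced bulk RNA from pulmonary group 2 innate lymphoid cells (ILC2s), the lung-resident lymphocytes that make IL-5 and IL-13 in allergic inflammation, in 3 WT and 3 SIRPα KO libraries. WT mice were CB57BL/6 as the labels spell it, and SIRPα KO mice carried the SIRPαtm1Ynliu/J allele of the gene for signal regulatory protein alpha, an inhibitory receptor for CD47. Both genotypes came from one supplier at 6 to 8 weeks of age, were matched for age and sex, and received rmIL-33 intranasally on 3 days. ILC2s were sorted on day 4 as CD45+ lineage-negative CD127+ ST2+ cells and kept in culture with added rmIL-2 plus rmIL-7 before lysis, so every library holds activated and cultured cells and none holds resting ones. The comparison asks how loss of SIRPα changes transcript levels in activated ILC2s.

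Krüppel-like factors (KLFs) are zinc finger transcription factors that bind CACCC and GC-rich boxes. KLF2 is known from T cells as a factor of quiescence that is turned down when the cell is activated and that drives transcription of S1pr1. S1P is low inside tissues and high in blood and lymph, and a lymphocyte that displays S1PR1 follows this gradient out of the tissue. Sphingosine kinases make S1P, the lyase encoded by Sgpl1 breaks it down, and CD69 binds S1PR1 and removes it from the surface.

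The libraries held 13980491 to 19051504 counted reads each. Libraries WT replicates 1 and 2 carry the same code number in their labels, and so do SIRPα KO replicates 2 and 3, so each of these pairs may stem from one sample. The series' own design text speaks of duplicates, while the labels number 3 replicates a group, and the tests below take the libraries as 3 against 3. The SD over genes of the log2 difference between libraries was 0.447 for the WT pair of one code, against 0.636 and 0.648 for the other WT pairs, and 0.269 against 0.275 and 0.318 in SIRPα KO. With the libraries of one code summed, 2 samples a group remained and 10 genes in the whole table passed an adjusted p of 0.05, and without any single SIRPα KO library 16 or 17 did. No gene of the lists described below was among them, so each of their passes rests on all 3 SIRPα KO libraries counted separately. Sirpa itself had 149, 96 and 73 reads in WT and 48, 85 and 28 in SIRPα KO, or 6.74 ± 1.87 against 3.09 ± 1.36 CPM (reads scaled to library size by TMM factors, mean ± SD, n = 3 and 3). These groups did not overlap in CPM, but the difference did not pass the test (log2 fold change -1.12, adjusted p = 0.115, edgeR quasi-likelihood test), and where in the gene the remaining reads lie was not tested.

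The sequences upstream of the lowered genes are shown because KLF2 and its relatives act on CACCC boxes and because the Klf2 promoter is known as a target of MEF2 factors. Promoter windows of 300 bases, from 250 before to 50 after the start of transcription, were taken from RefSeq (build GRCm38.p6), which gave a window for 6 of the 8 genes. The windows below are those of Klf2, Klf13 and S1pr4, whose levels did not overlap between genotypes, and of Klf3, whose levels did, each written along the strand of its gene. Capitals mark the letters CACCC, or GGGTG where the match is on the opposite strand, and in Klf2 also the MEF2-type palindrome, CTA and TAG set 4 bases apart.
Klf2, chr8:72318812-72319111, plus strand: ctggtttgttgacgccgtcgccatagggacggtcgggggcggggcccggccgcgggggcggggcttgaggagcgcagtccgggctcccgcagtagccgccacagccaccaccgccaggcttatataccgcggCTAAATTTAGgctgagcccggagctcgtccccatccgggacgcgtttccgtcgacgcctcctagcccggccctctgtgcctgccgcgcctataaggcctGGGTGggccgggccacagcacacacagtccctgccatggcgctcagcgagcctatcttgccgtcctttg
Klf13, chr7:63938866-63939165, minus strand: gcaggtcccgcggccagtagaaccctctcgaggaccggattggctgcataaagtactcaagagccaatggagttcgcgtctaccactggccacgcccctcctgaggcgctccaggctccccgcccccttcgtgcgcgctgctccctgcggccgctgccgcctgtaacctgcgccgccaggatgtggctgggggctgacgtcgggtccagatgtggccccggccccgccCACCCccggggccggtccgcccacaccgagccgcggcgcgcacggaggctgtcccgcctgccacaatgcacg
S1pr4, chr10:81500088-81500387, minus strand: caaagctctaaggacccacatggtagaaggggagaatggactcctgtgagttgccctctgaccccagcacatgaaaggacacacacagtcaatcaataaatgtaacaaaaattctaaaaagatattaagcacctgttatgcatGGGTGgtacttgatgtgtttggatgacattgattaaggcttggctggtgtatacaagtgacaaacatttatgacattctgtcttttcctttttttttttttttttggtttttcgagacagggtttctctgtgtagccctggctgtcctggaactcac
Klf3, chr5:64803271-64803570, plus strand: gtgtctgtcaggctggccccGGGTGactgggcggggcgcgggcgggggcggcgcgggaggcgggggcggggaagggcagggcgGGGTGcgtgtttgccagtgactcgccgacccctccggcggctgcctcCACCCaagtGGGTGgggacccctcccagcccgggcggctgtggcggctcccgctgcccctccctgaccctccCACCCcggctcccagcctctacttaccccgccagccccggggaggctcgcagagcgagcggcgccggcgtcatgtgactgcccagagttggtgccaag

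The Klf2 window held 1 CACCC match beginning 19 bases before the start and 1 MEF2-type match beginning 118 bases before it. The Klf13 window held 1 CACCC match beginning 22 bases before the start, and the S1pr4 window held 1 beginning 107 bases before it. Klf3 had 5 CACCC matches, and Klf6 had none. Searched on both strands, CACCC was present in 57.5% of 32851 promoter windows and at least 3 times in 9.35%. CTA and TAG with any 4 bases between them were present in 3.69%. This pattern is looser than the Klf2 match, whose 4 middle bases are all A or T. A CACCC match is thus common in windows of this length. Sphk1 has 5 annotated start sites, whose windows held 0 to 4 CACCC matches. Windows for Klf10 and S1pr1 were not analysed here.

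Klf2 was lower in SIRPα KO than in WT ILC2s. Klf2 lies at chr8:72319033-72321656 (mm10, GENCODE M21), has 3 exons and overlaps no annotated gene. Its counts were 137, 62 and 143 reads in WT replicates 1 to 3 and 13, 32 and 31 in SIRPα KO. On the CPM scale these were 7.88, 4.41 and 9.47 in WT and 0.831, 1.68 and 1.92 in SIRPα KO. Every SIRPα KO library lay below every WT library, and the 13 reads of SIRPα KO replicate 1 were the fewest. The means were 7.25 ± 2.59 and 1.48 ± 0.573 CPM, a level 4.88-fold higher in WT (log2 fold change -2.29, SE 0.46). Within WT the spread of Klf2 was up to 2.15-fold, and WT replicates 1 and 2, which share a code, differed 1.79-fold. Of all 13623 genes tested, 42.8% had groups that did not overlap, in either direction, so a lack of overlap alone is common in this table. Because the samples are bulk, fewer cells of a type and less RNA per cell cannot be told apart, here and for every gene below.

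**Figure D1:**
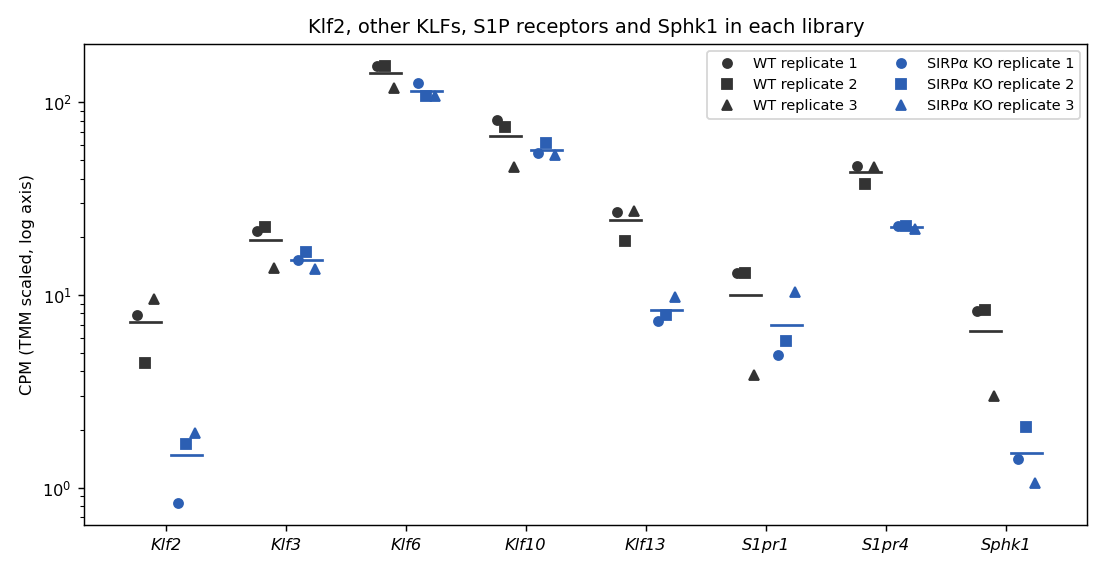
CPM of each gene (log axis) in each of the 3 WT (black) and 3 SIRPα KO (blue) libraries, with the symbol giving the replicate number and a line the group mean. Klf2, Klf13, S1pr4 and Sphk1 show SIRPα KO points below all WT points, whereas the points of Klf3, Klf6, Klf10 and S1pr1 overlap.

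Of the 7 other genes, Klf13, S1pr4 and Sphk1 fell and the remaining 4 did not pass the test. All 8 fold changes were negative, with a median log2 fold change of -0.73 against -0.03 over all genes tested. Of all genes tested, 11.7% passed, 5.81% as lower and 5.94% as higher. The 8 genes were picked with these values known, so their count describes the list and nothing is read from it.

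Klf13, a KLF known from T cells for driving late transcription of the chemokine gene Ccl5, had the largest decrease in its family after Klf2. It lies at chr7:63886351-63938915 on the minus strand. Its levels were 26.9, 19.1 and 27.3 CPM in WT and 7.29, 7.87 and 9.74 in SIRPα KO, from 468, 268 and 413 reads against 114, 150 and 157. The lowest WT library was again replicate 2, and it stood above every SIRPα KO library. The means of 24.4 ± 4.66 and 8.3 ± 1.28 CPM differed 2.94-fold (log2 fold change -1.56, SE 0.231, adjusted p = 0.0136, edgeR quasi-likelihood test). A pair of annotated genes on the opposite strand overlap Klf13, and whether the counting used strand is not given in the sources used here. Of these, Gm27252 had at most 6 reads in any library, and the other, E030018B13Rik, was not analysed here.

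Klf6, Klf10 and Klf3 had no difference that passed the test. Klf6 (chr13:5861482-5870394), a broadly expressed KLF induced early on stimulation, had 154, 154 and 118 CPM in WT and 126, 108 and 107 in SIRPα KO. WT replicate 3 fell inside the SIRPα KO range, and the log2 fold change was -0.32 (SE 0.146, adjusted p = 0.172). Klf10 (chr15:38291463-38300706, minus strand), known as a TGF-β-inducible early gene, had 80.2, 74 and 46 CPM in WT and 54.6, 61.3 and 53.2 in SIRPα KO. Here WT replicate 3 was the lowest of all 6 libraries (log2 fold change -0.24, SE 0.214, adjusted p = 0.462). Klf3 (chr5:64803388-64832901), a repressor that recruits CtBP, had 21.4, 22.5 and 13.8 CPM in WT and 15.1, 16.6 and 13.6 in SIRPα KO. WT replicate 3 again lay among the SIRPα KO libraries (log2 fold change -0.35, SE 0.235, adjusted p = 0.337). Klf3 overlaps C230096K16Rik, which had at most 11 reads, and Gm20033, which was not analysed here.

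WT replicate 3 decided the outcome for 2 of these. Without it Klf6 passed at a log2 fold change of -0.43 and an adjusted p of 0.0257, within a range of 0.0112 to 0.539 over the 14 alternative ways of processing. Klf10 passed without it at -0.44 and an adjusted p of 0.0337, within a range of 0.0337 to 0.821. Correcting each library for length and GC effects moved Klf6 to -0.70 and Klf3 to -0.77 and took both past the threshold. Levels of all 3 thus stayed lower in SIRPα KO in direction while their test depended on 1 library or 1 correction.

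Across the KLF family, 13 of the 14 genes in the table were tested, 10 with a negative and 3 with a positive fold change, and the median log2 fold change was -0.24. Of the 12 other than Klf2, Klf13 fell and the remaining 11 did not pass, beside 11.7% passing over all genes tested. Summed over the family, the libraries held 356 to 470 CPM in WT and 314 to 339 in SIRPα KO, without overlap. Klf5 (52.2 ± 6.8 against 36.7 ± 2.47 CPM) had groups that did not overlap and an adjusted p of 0.0711 (log2 fold change -0.51). Klf7 also had no overlap, at 57 ± 4.78 against 49.5 ± 1.35 CPM (log2 fold change -0.20, adjusted p = 0.325). Klf4, a close relative of Klf2, had 7.25, 2.77 and 1.99 CPM in WT and 1.79, 1.57 and 2.36 in SIRPα KO. WT replicate 1 was far above the other 5 libraries, and the log2 fold change of -1.07 did not pass (adjusted p = 0.218). Klf14, Klf15, Klf17 and Klf18 were not analysed here.

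**Figure D2:**
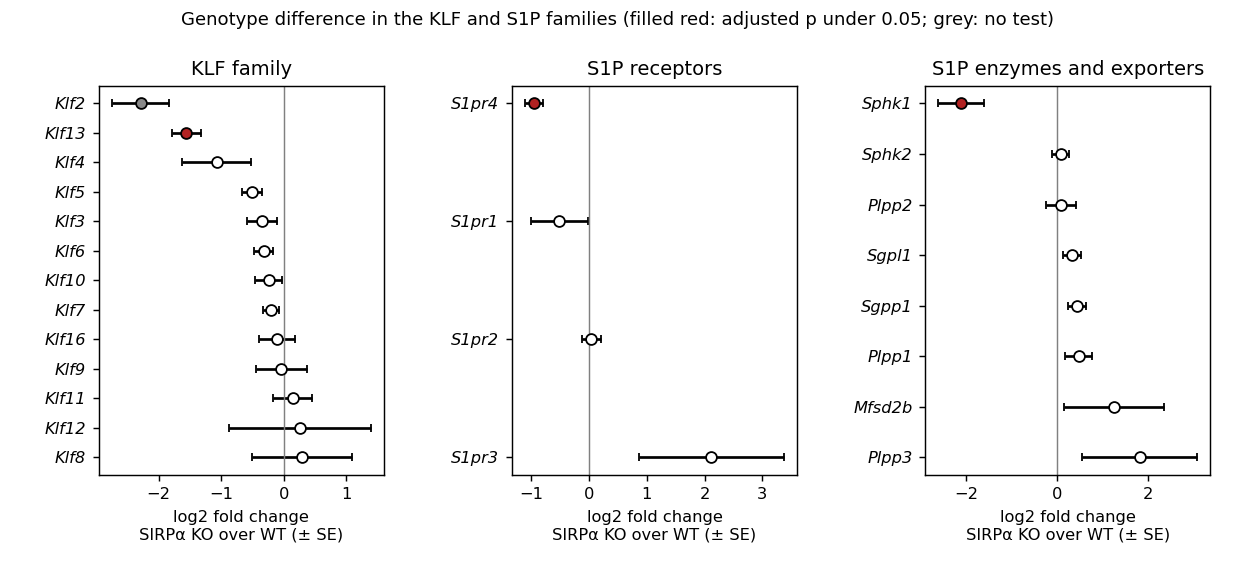
Log2 fold change of SIRPα KO over WT with its SE for every tested KLF, S1P receptor and gene of S1P synthesis, export and breakdown. Klf13, S1pr4 and Sphk1 are filled red for an adjusted p under 0.05, Klf2 is grey because it was chosen by this difference, and the open points did not pass.

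Per transcript length, Klf2 was a minor KLF in these cells and became a smaller one in SIRPα KO. Levels are given here as TPM, reads scaled to both library size and transcript length, with the longest transcript of each gene. In WT the order began with Klf6 at 72 ± 16.2 TPM, Klf10 at 47.3 ± 16.2 TPM and Klf5 at 33.3 ± 6.98 TPM. Klf16 at 16.9 ± 8.01 TPM and Klf7 at 15.8 ± 2.11 TPM followed. Klf2 at 8.22 ± 2.53 TPM, Klf13 at 8.07 ± 1.41 TPM and Klf3 at 7.95 ± 2.51 TPM came next and differed from each other by less than their SDs. The ranges of neighbouring pairs from Klf6 down to Klf7 overlapped across WT libraries. Within each WT library, however, Klf6 lay above Klf10, Klf10 above Klf5 and Klf5 above Klf16. Klf16 lay above Klf7 in WT replicate 1 only. Klf7 (14 to 18.1 TPM) lay above Klf2 (5.3 to 9.8 TPM) in every WT library.

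In SIRPα KO the first 5 places were held by the same 5 genes in the same order, from Klf6 at 65.1 ± 5.94 TPM to Klf7 at 15.7 ± 0.37 TPM. Klf2 stood sixth of 14 KLFs in WT and eleventh in SIRPα KO, at 1.94 ± 0.756 TPM. Klf13 went from seventh to ninth, at 3.14 ± 0.484 TPM, while Klf3 stood eighth and then seventh, at 7.02 ± 0.709 TPM. Of the summed TPM of the family, Klf2 made up 3.88 ± 1.82% in WT and 0.99 ± 0.41% in SIRPα KO. The share of Klf13 was 3.73 ± 1.05% and 1.6 ± 0.307%, again without overlap. Klf6 held 32.2 ± 2.03% and 32.9 ± 2.28%, and Klf10 held 20.7 ± 3.05% and 22.7 ± 1.63%, both with overlap. Klf6 and Klf10 were thus the largest parts of the family in both genotypes.

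**Figure D3:**
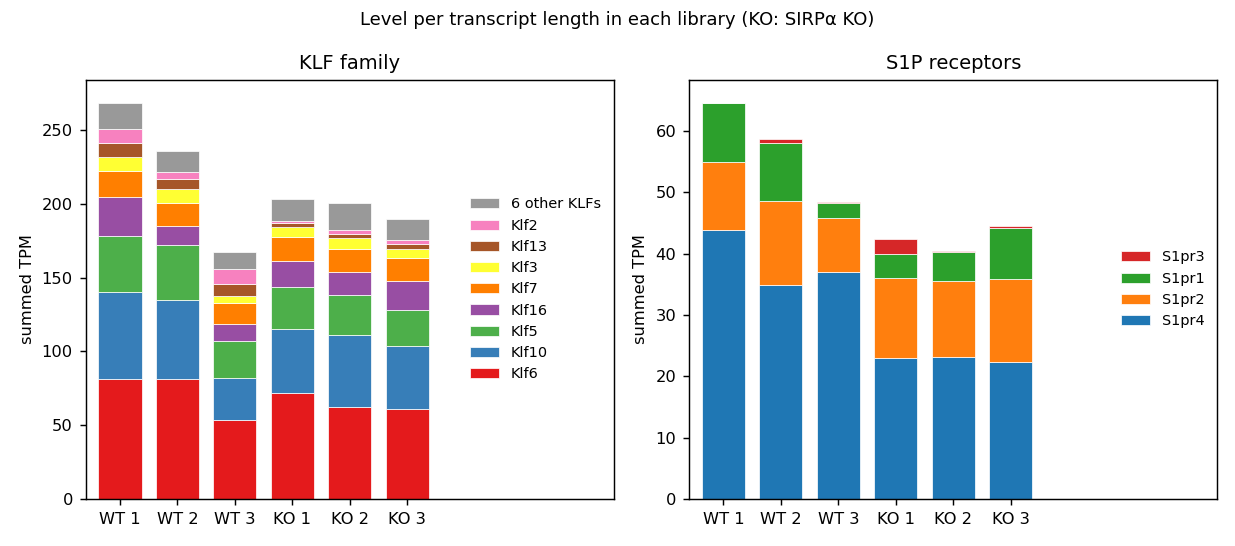
Summed TPM of the KLF family (left) and of the S1P receptors (right) in each WT and SIRPα KO (KO) library, with each gene as a coloured part of the bar. Klf6 and Klf10 form the largest parts of the KLF bars, and the S1pr4 part is smaller in the 3 SIRPα KO libraries, at 22.3 to 23.2 TPM, than in the WT libraries, at 34.9 to 43.8 TPM.

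S1pr4 fell in SIRPα KO, whereas S1pr1, the receptor known to carry lymphocyte egress, did not pass the test. S1pr4, a Gi-coupled receptor found mostly on blood cells and lymphoid tissue, lies at chr10:81497747-81500132 as a single exon on the minus strand. Its levels were 46.6, 37.5 and 46.2 CPM in WT and 22.8, 22.7 and 22 in SIRPα KO, from 527 to 811 reads in WT and 354 to 433 in SIRPα KO. The SIRPα KO libraries were tightly grouped and all below WT. The means of 43.4 ± 5.17 and 22.5 ± 0.451 CPM differed 1.93-fold (log2 fold change -0.95, SE 0.159, adjusted p = 0.0165).

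S1pr1 (chr3:115710433-115715072, minus strand) had 13, 13 and 3.84 CPM in WT and 4.86, 5.77 and 10.3 in SIRPα KO. The lowest value of all 6 libraries was that of WT replicate 3, and SIRPα KO replicate 3 lay close to the 2 high WT libraries. The log2 fold change of -0.51 had an SE of 0.497 (adjusted p = 0.504), so a decrease of the size seen in S1pr4 lies within 1 SE of it. The fold change stayed negative under all 14 alternatives, between -0.90 and -0.27, and passed under none.

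The other S1P receptors showed no passing difference. S1pr2, a receptor known for holding cells in place, was at 33.5 ± 5.2 CPM in WT and 34.3 ± 1.79 in SIRPα KO (log2 fold change 0.04, SE 0.168, adjusted p = 0.899). S1pr3 had 0, 14 and 6 reads in WT and 74, 8 and 14 in SIRPα KO, with a log2 fold change of 2.12 (adjusted p = 0.282), and SIRPα KO replicate 1 held most of its reads. S1pr5 was not analysed here. Per transcript length the order of receptors was the same in both genotypes. It ran from S1pr4 at 38.6 ± 4.65 TPM in WT and 22.8 ± 0.498 TPM in SIRPα KO, over S1pr2 at 11.2 ± 2.44 and 13 ± 0.626 TPM, to S1pr1 at 7.15 ± 4.11 and 5.55 ± 2.31 TPM. S1pr4 thus lay above the others in every library. The WT ranges of S1pr2 and S1pr1 overlapped, but S1pr2 lay above S1pr1 within every library. S1pr4 made up 68 ± 8.45% of the summed receptor TPM in WT and 53.9 ± 3.72% in SIRPα KO, and S1pr2 19.6 ± 3.29% and 30.6 ± 0.0875%, each without overlap. The share of S1pr1 was 12 ± 6.13% and 13 ± 4.84%.

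Sphk1, the inducible cytosolic sphingosine kinase, fell in SIRPα KO. It lies at chr11:116530925-116536674 and overlaps an annotated antisense gene, Gm29292. Its counts were 143, 117 and 45 reads in WT and 22, 39 and 17 in SIRPα KO, that is 8.22, 8.32 and 2.98 CPM against 1.41, 2.05 and 1.05 CPM. WT replicate 3 was far below the other WT libraries and the closest of them to SIRPα KO. The means of 6.51 ± 3.06 and 1.5 ± 0.503 CPM differed 4.3-fold (log2 fold change -2.10, SE 0.503, adjusted p = 0.0379). Leaving out WT replicate 1 or WT replicate 2 ended the call, at -1.90 and -1.89, with adjusted p-values over all 14 alternatives between 0.0018 and 0.17.

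The other kinase, Sphk2, was more abundant and had 45.1 ± 9.05 CPM in WT and 47.7 ± 3.08 in SIRPα KO (log2 fold change 0.08, adjusted p = 0.788). Of the 10 genes of S1P synthesis, export and breakdown, 8 were tested. Of these, Sphk1 alone had a negative fold change and alone passed, beside 11.7% passing over all genes tested. The median log2 fold change of these 8 was 0.39. The lyase gene Sgpl1 had 113 ± 21.9 and 143 ± 30.3 CPM (log2 fold change 0.34, adjusted p = 0.283). Sgpp1, encoding an S1P phosphatase, had 42.1 ± 9.5 and 57.2 ± 3.74 CPM, with no overlap and an adjusted p of 0.155. The exporter gene Spns2 was at 0 TPM in all SIRPα KO libraries and 2 of the 3 WT libraries and was too low to test.

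Among 22 homing and retention receptors, fixed as a list around KLF2 with earlier results known, 17 were tested, 1 rose and 3 fell. Over all genes tested, 5.94% rose and 5.81% fell. Itga4, the integrin α4 chain that binds VCAM-1, rose from 19.8 ± 5.09 to 36.7 ± 3.3 CPM (log2 fold change 0.89, adjusted p = 0.0388). Its partner chain Itgb7 fell from 520 ± 49.9 to 365 ± 7.23 CPM (log2 fold change -0.51, adjusted p = 0.0257). Selplg, encoding the selectin ligand PSGL-1, fell from 1160 ± 32.8 to 856 ± 15.2 CPM (log2 fold change -0.44, adjusted p = 0.0194). Cxcr3 had 24, 33 and 23 reads in WT and 0 in every SIRPα KO library (adjusted p = 0.0158). Taking 3 reads per library as the limit that a count of 0 allows, Cxcr3 was at least 9.81-fold higher in WT. DESeq2 gave Cxcr3 no adjusted p. The call for Itga4 was lost without WT replicate 2 (log2 fold change 0.81), with no filter on low counts and after the length and GC correction (0.27), and that for Itgb7 without WT replicate 1 (-0.44) and after the correction (-0.33).

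Ccr7, a chemokine receptor of lymph node homing, had a log2 fold change of -0.44 (adjusted p = 0.217). Cd69 had -0.50 (adjusted p = 0.189). Cxcr6, the most abundant of the list at 1340 ± 249 and 1220 ± 44.2 CPM, had -0.13 (adjusted p = 0.536).

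Of 26 genes known to control KLF2 or S1PR1, 25 were tested, 2 rose and 3 fell. Over all genes tested, 11.7% passed, 5.94% as higher and 5.81% as lower. Ep300, encoding an acetyltransferase and coactivator, rose from 37.9 ± 6.67 to 99.4 ± 5.07 CPM (log2 fold change 1.39, adjusted p = 0.00746). Mef2a, encoding a MEF2 factor of the kind that binds the palindrome marked above, rose from 26.9 ± 9.7 to 55.7 ± 1.73 CPM (log2 fold change 1.05, adjusted p = 0.0418). Mef2a and Klf2 differed in opposite directions between the genotypes. Mef2d, encoding another MEF2 factor, was more abundant than Mef2a in both genotypes and did not pass. Its mean was 74.7 ± 18.4 (WT) against 73.3 ± 9.42 CPM (SIRPα KO), with a log2 fold change of -0.03 (adjusted p = 0.935). Mef2c was too low to test. Whether any MEF2 factor had a part in the Klf2 values was not tested. The call for Mef2a was lost without WT replicate 1 (log2 fold change 1.09), with no filter on low counts and after the length and GC correction (0.59).

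The 3 genes that fell are known for roles at S1P and chemokine receptors or below them. Arrb2, encoding the β-arrestin that takes up activated receptors, fell from 157 ± 6.4 to 81.5 ± 6.93 CPM (log2 fold change -0.94, adjusted p = 0.00937). Gnai2, encoding a Gi subunit that couples to S1PR1, fell from 725 ± 58.7 to 492 ± 12.6 CPM (log2 fold change -0.56, adjusted p = 0.0177). Rac2, encoding a small GTPase of blood cell migration, fell from 709 ± 19.3 to 485 ± 18.8 CPM (log2 fold change -0.55, adjusted p = 0.0154). Of the same list, Gnai3 and Wwp1 were higher in every SIRPα KO library but did not pass. Gnai3, encoding another Gi subunit, had 234 ± 60.1 and 349 ± 15.2 CPM (log2 fold change 0.57, adjusted p = 0.0832). Wwp1 had 23.4 ± 9.77 and 49.6 ± 5.33 CPM (log2 fold change 1.08, adjusted p = 0.0571). In the related Sp family of GC-box factors, 1 of 4 tested genes passed, beside 11.7% over all genes tested. This was Sp3, which rose from 65.9 ± 19.4 to 116 ± 10.7 CPM (log2 fold change 0.82, adjusted p = 0.0439). Sp3 did not pass without WT replicate 1 (0.72) or WT replicate 3 (0.69), nor after the length and GC correction (0.43).

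The genes most like Klf2 across the 6 libraries included Lck, Ftl1-ps2, Gm37795 and Batf3. Likeness was the root mean square difference between log2 CPM values centred on each gene's mean, over 11531 genes, and it was smallest for Lck, at 0.221. Lck, encoding the kinase of T cell receptor signalling, had 9.09, 5.76 and 12.4 CPM in WT and 1.21, 3.04 and 2.11 in SIRPα KO. Like Klf2 it was lowest in WT replicate 2 among WT libraries and in replicate 1 among SIRPα KO libraries. Ftl1-ps2, Gm37795 and Batf3 had distances of 0.292, 0.32 and 0.334, and Ftl1-ps2, a ferritin pseudogene, shares sequence with its parent gene, which makes its counts uncertain.

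Klf2 is also expressed in resting B and T cells and in endothelium, and markers of these cells were measured in the same libraries. The sort required CD45, which endothelium lacks, and its lineage gate removed cells displaying T cell proteins (CD3ε, TCRβ, TCRγδ, CD4 or CD5), B220 of B cells or CD335 of NK cells. The ILC2 markers Gata3, Il1rl1 and Il7r were present in every library, and the summed ILC2 list was 15500 to 16800 CPM in WT and 21500 to 22000 in SIRPα KO. Il5, at 9190 ± 661 and 13000 ± 332 CPM, made up most of this sum. Of the 15 ILC2 genes, 3 were higher (Il5, Il2ra and Ptprc) and 2 lower, beside 5.94% higher and 5.81% lower over all genes tested. Gata3 had 946 ± 119 and 1010 ± 32.8 CPM (log2 fold change 0.10, adjusted p = 0.566). Id2 fell from 1270 ± 137 to 811 ± 34.8 CPM, and Thy1 from 16.1 ± 6.04 to 3.86 ± 0.266 CPM (log2 fold change -2.06, adjusted p = 0.0139). The sum of the B cell list was 224 to 484 CPM in WT and 25.4 to 88.7 CPM in SIRPα KO, and 5 of its 8 tested genes fell, among them Cd79a, Cd79b, Ighm and Igkc. In WT, Ighm at 219 ± 99.2 CPM and Igkc at 137 ± 55.5 CPM made up most of the B cell sum. The T cell list summed to 241 to 320 CPM and 152 to 159 CPM, with 4 of 7 lower, Cd3g, Cd247, Trbc1 and Trbc2. Among markers in the gate, Cd4 had 0 reads in every WT library and 0, 11 and 0 in SIRPα KO. Cd5 had 0, 8 and 0 reads in WT and 0, 0 and 3 in SIRPα KO. Cd3e had 42, 18 and 6 reads in WT and 26, 14 and 14 in SIRPα KO. Ncr1, encoding CD335, had 16, 10 and 23 reads in WT and 1, 13 and 5 in SIRPα KO. The NK cell list summed to 19.4 to 27.3 CPM and 1.98 to 4.22 CPM, with 4 of 6 lower, Klrb1c, Eomes, Gzma and Klre1. In all, 13 of 21 tested lymphocyte markers fell and none rose, beside 5.81% lower and 5.94% higher over all genes tested. Without WT replicates 1, 2 and 3, 7, 9 and 12 of these markers fell.

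These B, T and NK cell sums moved in the same direction as Klf2, Klf13, S1pr4, Sphk1 and Cxcr3, without overlap between genotypes, and their part in those results was not tested. Within WT, the T and NK cell sums were highest in replicate 3 and lowest in replicate 2, the libraries with the highest and lowest Klf2, whereas the B cell sum was lowest in replicate 3. Within SIRPα KO the B and NK cell sums were lowest in replicate 1, as Klf2 was, at 25.4 CPM for B cells against 88.7 and 83.7 CPM, and the T cell sum was highest there. The endothelial list summed to 58.4 to 66.3 CPM in WT and 65.8 to 70.4 CPM in SIRPα KO, and of its 5 tested genes Pecam1 rose, from 22.8 ± 5.9 to 41.7 ± 1.89 CPM, and Eng fell, from 33.1 ± 0.717 to 19.5 ± 1.84 CPM. The list also had Kdr at 0, 2 and 0 reads in WT and 0, 0 and 22 in SIRPα KO. Vwf had 0, 0 and 1 read in WT and 3, 0 and 11 in SIRPα KO. The part of endothelial RNA in the Klf2 values was not tested. Myeloid markers summed to 46.9 to 137 CPM and 87.7 to 132 CPM, and eosinophil markers to 4.14 to 18.9 and 6.56 to 32.1 CPM, both overlapping, with 1 of 9 (Itgam, higher) and 0 of 3 tested genes past the threshold. Over all genes tested, 11.7% passed.

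**Figure D4:**
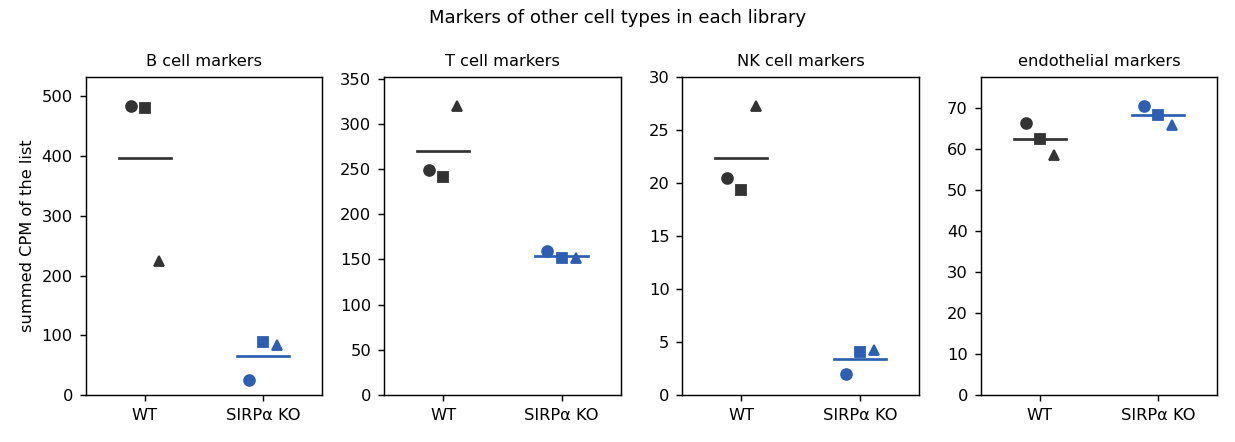
Summed CPM of the B cell, T cell, NK cell and endothelial marker lists in each WT (black) and SIRPα KO (blue) library, with symbols for the replicate number and lines for the group means. The 3 lymphocyte sums are lower in every SIRPα KO library than in every WT library, and the endothelial sums lie close together at 58.4 to 70.4 CPM.

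The direction of all 8 genes was negative under each of the 14 alternatives. The log2 fold change of Klf2 ranged from -2.55 without WT replicate 2 to -1.77 once length and GC effects were corrected. Klf13 ranged from -1.85 to -1.46, S1pr4 from -1.05 to -0.67 and Sphk1 from -2.44 to -1.89. Klf13 and S1pr4 each passed under 10 of the 14 alternatives, all but those that left out a SIRPα KO library or summed the libraries of one code, and Sphk1 passed under 8.

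**Figure D5:**
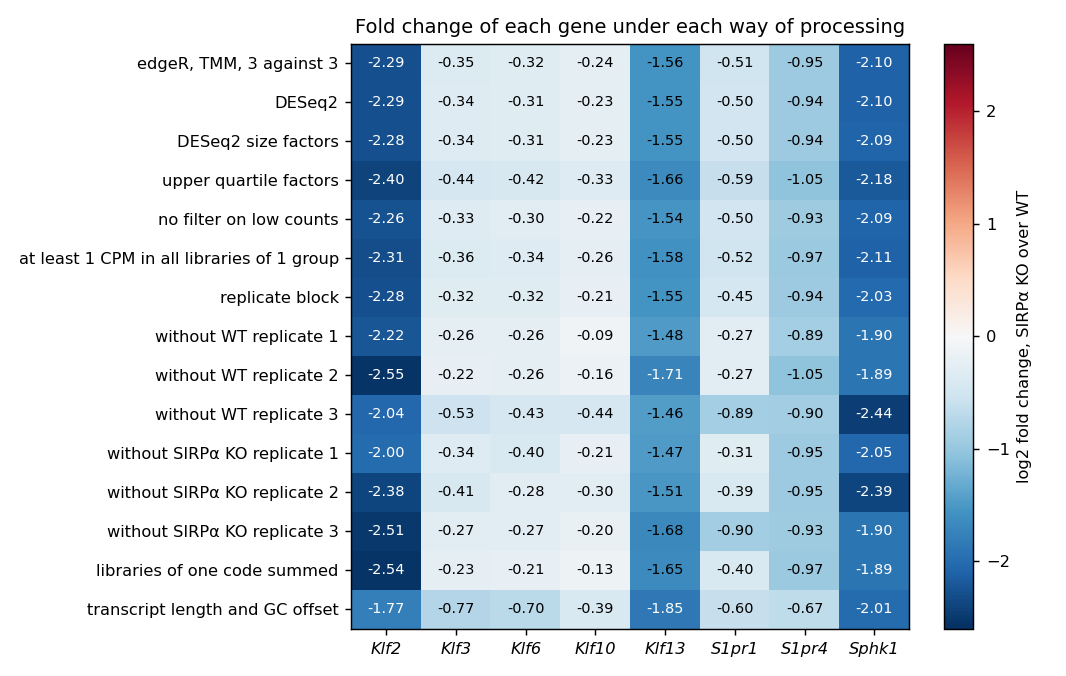
Log2 fold change of SIRPα KO over WT for each gene (columns) under the reported fit (top row) and 14 alternatives (other rows), with blue for lower in SIRPα KO. Every cell is negative, and Klf2, Klf13 and Sphk1 stay at or below -1.46 in each row.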

How the data were processed

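The deposited table holds estimated counts per gene that the authors obtained by aligning reads to mm10 with STAR (2.7.8) in Partek (10.0), as given in the submitters' processing notes, from low-input cDNA libraries. Values were rounded to whole reads. edgeR (4.0.16, R 4.3.3) was used with filterByExpr (minimum count 10), TMM factors and a quasi-likelihood test of genotype on 13623 genes, with Benjamini-Hochberg adjustment and a threshold of 0.05 on 3 against 3 libraries. TPM used the longest GENCODE M21 transcript. Members and gene lists were chosen with earlier results of these data known. Beyond the 8 genes, every listed gene past the threshold (at most the 10 largest) and the 3 most abundant of each list were to be named, with further listed genes named after their values were seen. A few genes that this rule names are not reported here. Nothing states that replicates came from separate animals, so p-values measure only the spread between libraries, which may be technical. With 3 against 3 libraries an exact permutation test cannot go below 0.1 and was not used. Alternatives were DESeq2 (1.42.0), other scaling factors and filters, a replicate block, left-out libraries, summed codes and a length and GC offset. The fitting code was tested on simulated data.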

Additional observations from a re-analysis of the deposited data

How the results depend on the processing

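No fold change of the 8 genes reversed. Libraries of one code summed gave -1.65 for Klf13, -0.97 for S1pr4 and -1.89 for Sphk1, none past the threshold, and 0 genes in each of the 6 lists. The length and GC offset gave -0.77 for Klf3 and -0.70 for Klf6, both past it, with 6 KLFs and 0 Sp genes passing (5 KLFs without Klf2, whose test is void because it was chosen by this difference), and no filter on low counts left 0 Sp genes. Leaving out 1 library at a time gave -0.43 to -0.26 for Klf6, -0.44 to -0.09 for Klf10, -1.71 to -1.46 for Klf13, -1.05 to -0.89 for S1pr4 and -2.44 to -1.89 for Sphk1. It gave 0 to 5 genes for the KLF family (0 to 4 without Klf2), 0 to 1 for S1P receptors, 0 to 2 for S1P enzymes and exporters, 0 to 8 for homing receptors, 0 to 7 for controllers of KLF2 and S1PR1 and 0 to 2 for the Sp family. The causes of these changes were not tested.

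Over all genes 1600 passed (791 lower, 809 higher). DESeq2 gave 3118, without WT replicate 2 or 3 gave 2309 and 2606, without a SIRPα KO library 16 to 17 (2935 to 3183 at an unadjusted p under 0.05), and summed codes 10 (3359 unadjusted). Upper quartile factors gave 1010 lower and 703 higher and moved the median of all genes from -0.025 to -0.125. The replicate block gave 1118 calls (449 lower, 669 higher). Same-numbered libraries correlated at -0.14, 0.18 and 0.03 in their deviations from the group means, within the range of differently numbered ones (-0.26 to 0.23). With 3 libraries a group these deviations depend on each other, so the values cannot decide whether the numbers pair the libraries. Under the block no call among the 7 genes other than Klf2 changed, and Klf2 was at -2.28. Klf2 rests on 13 to 32 reads per SIRPα KO library and Sphk1 on 17 to 39, which limits their precision.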
